A study of Mus musculus with 12 samples.

Results

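Angiopoietins, angiopoietin-like proteins and the Tie receptors are secreted ligands and endothelial receptors that regulate blood vessels, lymphatics and lipid handling. Their transcripts were measured on a whole-transcript array (Affymetrix Mouse Gene 1.0 ST) in the ankle joint of 12 animals forming 4 groups of 3. The 9 genes named were Angptl1, Angptl2, Angptl4, Angptl6, Angptl7, Angpt1, Angpt2, Tek and Tie1, taken from the rows of the array to which the annotation gave 1 of these symbols alone, or, where several did, the row whose signal averaged highest across the 12 arrays. The rule found 8 of the 9 among 28853 features, each with 1 row, and all 8 passed the filter on mean signal that left 18479 features for testing. The annotation used here named Angptl2 on no row, alone or with other genes, and it was not analysed here. The family was chosen by the measured fall of Angptl7 in arthritic joints, so the differences between arthritic and control mice are given for these genes as a description, and calls from those contrasts support nothing about them.

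The mice were Mmp8+/+ or Mmp8-/- C57BL/6 animals, the latter lacking matrix metalloproteinase 8 (neutrophil collagenase) in every cell, with a knockout allele made on a mixed background and then backcrossed to C57BL/6. The control mice of each genotype had no arthritis. The arthritic mice of each genotype were given 150 µl of arthritogenic serum from K/BxN mice intraperitoneally on day 0 and on day 2 and were killed on day 7. Total RNA came from the whole ankle joint, a mix of bone, cartilage, synovium, tendon, muscle, fat and skin, so fewer cells of a type and less RNA per cell cannot be told apart. Values are log2 signals after RMA (background correction, quantile normalization and summary per feature), and a difference of 1 is a doubling. Mice are numbered within a group only to name them.

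Some labels went against the arrays. The array labelled Mmp8-/- control, mouse 2, gave an Mmp8 signal of 10.65, within the range of the 6 Mmp8+/+ arrays (10.21 to 11.16), whereas the other 5 Mmp8-/- arrays lay between 4.64 and 5.54. Mouse 1 of the Mmp8+/+ controls and mouse 1 of the Mmp8-/- controls, although the mice were described as male, gave Xist signals of 10.42 and 10.92 against 4.66 to 5.41 on the other 10 arrays. Differences of the members, and counts or medians over gene lists, are given below with and without these 3 control arrays, which are called the arrays in doubt. Without all 3, mouse 3 is the only Mmp8-/- control left. Values and calls given for Mmp8-/- mice without them thus rest on a single control mouse.

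Angiopoietin-1 (Angpt1) is the main activating ligand of the receptor tyrosine kinase Tie2, which Tek encodes, and is made largely by cells around vessels. Angiopoietin-2 (Angpt2), released by endothelial cells, competes at the same receptor and can block or activate it by context. Tie1 is a related receptor without a well-defined angiopoietin ligand of its own that pairs with Tie2. The angiopoietin-like proteins share the coiled-coil and fibrinogen-like domains of the angiopoietins but do not bind Tie2, and the best known, Angptl4, inhibits lipoprotein lipase.

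The 250 bases before the annotated start were taken from RefSeq (GRCm38.p6), where 6 of the 9 genes had an entry (Angptl1, Angptl2, Angptl6, Angptl7, Tek and Tie1). They are shown for the gene with the deepest difference, Angptl7 (chr4:148500463-148500712, minus strand), for Angptl1 (chr1:156838773-156839022, plus strand), and for both receptors, Tek (chr4:94739039-94739288, plus strand) and Tie1 (chr4:118489850-118490099, minus strand). Capitals mark matches, on either strand, to any of 5 motifs. The letters searched were TATAAA for the TATA box and TGANTCA for the AP-1 site bound by Fos and Jun proteins. They were TGACGT for the core of the cyclic AMP element, whose last letters can overlap the hypoxia element core, searched as ACGTG. The site of ETS factors, which are abundant in endothelial cells, was searched as AGGAAG.
Angptl7: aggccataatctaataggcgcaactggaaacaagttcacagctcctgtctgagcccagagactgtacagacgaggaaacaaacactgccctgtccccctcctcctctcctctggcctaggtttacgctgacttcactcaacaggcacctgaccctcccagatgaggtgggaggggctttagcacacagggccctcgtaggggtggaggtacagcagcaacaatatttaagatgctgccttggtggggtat
Angptl1: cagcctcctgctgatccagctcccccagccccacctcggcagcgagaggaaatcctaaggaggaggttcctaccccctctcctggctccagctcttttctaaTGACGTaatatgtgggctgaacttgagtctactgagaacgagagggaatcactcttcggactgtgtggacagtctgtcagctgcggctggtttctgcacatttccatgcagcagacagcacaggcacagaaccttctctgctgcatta
Tek: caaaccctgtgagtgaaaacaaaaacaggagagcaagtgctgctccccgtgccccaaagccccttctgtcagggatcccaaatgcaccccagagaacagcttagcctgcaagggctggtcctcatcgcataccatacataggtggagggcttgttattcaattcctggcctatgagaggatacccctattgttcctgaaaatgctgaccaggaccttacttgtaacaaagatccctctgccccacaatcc
Tie1: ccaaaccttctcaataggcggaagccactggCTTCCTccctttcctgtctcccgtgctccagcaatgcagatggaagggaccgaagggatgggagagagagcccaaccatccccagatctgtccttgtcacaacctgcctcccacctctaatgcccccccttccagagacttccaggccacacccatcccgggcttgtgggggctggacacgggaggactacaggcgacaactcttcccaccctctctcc
The Angptl1 window held the cyclic AMP element core at bases -148 to -143 from the start, a match that 6.47% of 32851 promoters of the same length also held. The Tie1 window held an ETS match at bases -219 to -214 and the Angptl6 window 1 at bases -205 to -200, where 29.5% of all promoters held one. The window of Angptl2, which the annotation named on no row, held both, the cyclic AMP element core at bases -166 to -161 and an ETS match at bases -110 to -105. The Angptl7 and Tek windows matched none of the 5 motifs. Over all promoters TATA was matched in 12.4%, AP-1 in 6.75% and the hypoxia core in 16.6%. The matches describe letters in these windows and not bound sites.

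Angptl7, a secreted protein of the family best known from the eye and from cartilage and other dense connective tissue, was by far the most different member between control and arthritic joints. Its log2 signals were 12.21, 11.52 and 11.48 in Mmp8+/+ controls and 11.68, 12.02 and 11.20 in Mmp8-/- controls. In arthritic mice they were 7.59, 6.92 and 7.22 in Mmp8+/+ and 7.25, 7.17 and 8.54 in Mmp8-/- animals. Every arthritic array lay below every control array, and the highest arthritic value was that of mouse 3 of the Mmp8-/- group. Group means were 11.74 ± 0.41 and 11.64 ± 0.41 in Mmp8+/+ and Mmp8-/- controls and 7.24 ± 0.34 and 7.65 ± 0.77 in the arthritic groups (SD, n = 3 each). The log2 difference was -4.49 in Mmp8+/+ mice (95% interval -5.21 to -3.78), 22.5-fold lower, and -3.98 in Mmp8-/- mice (-4.70 to -3.27), 15.8-fold lower. These were the 3rd and the 5th deepest falls of the 18479 features. Without both arrays with Xist signal the differences were -4.26 and -3.96, and without the array labelled Mmp8-/- control that gave Mmp8 signal as well, the Mmp8-/- difference was -3.55.

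**Figure D1:**
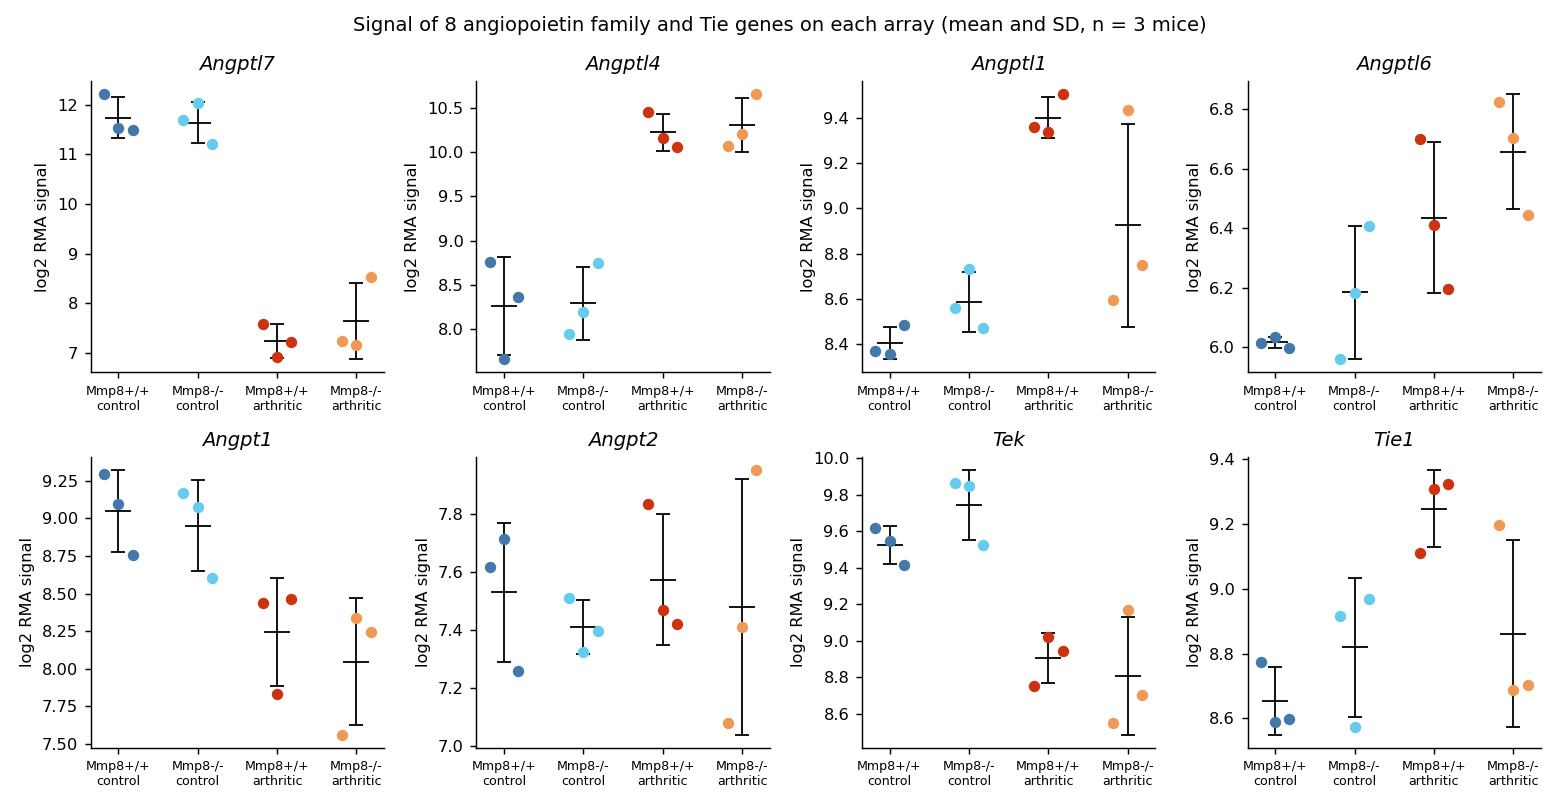
Log2 RMA signal (vertical axes, each with its own range) of the 8 measured genes on each of 12 arrays, by group, with points for single mice and bars for the mean and SD (n = 3). The Angptl7 points of arthritic mice (6.92 to 8.54) sit below all control points (11.20 to 12.21), the Angptl4 points sit above them, and the Angpt2 points of all groups overlap.

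Angptl4, the lipoprotein lipase inhibitor made under fasting and low oxygen, went the opposite way. The control values were 8.76, 7.67 and 8.36 in Mmp8+/+ and 7.94, 8.20 and 8.75 in Mmp8-/- mice. The arthritic values were 10.45, 10.16 and 10.05 in Mmp8+/+ and 10.07, 10.20 and 10.65 in Mmp8-/- mice. All 6 arthritic arrays lay above all 6 controls. The log2 difference was 1.96 in Mmp8+/+ mice (95% interval 1.39 to 2.53) and 2.01 in Mmp8-/- mice (1.44 to 2.58). Without both arrays with Xist signal it was 2.21 and 1.83, and in Mmp8-/- mice 1.56 without the third array in doubt as well.

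Angptl1, a secreted inhibitor of vessel growth, had control values of 8.37, 8.36 and 8.49 in Mmp8+/+ and 8.56, 8.73 and 8.47 in Mmp8-/- mice. In arthritic Mmp8+/+ mice the values were 9.36, 9.34 and 9.50, all above the controls. In arthritic Mmp8-/- mice they were 8.59, 9.43 and 8.75, so that only mouse 2 reached the level of the arthritic Mmp8+/+ group and mouse 1 lay within the control range. The log2 difference was 0.99 (95% interval 0.58 to 1.40) in Mmp8+/+ and 0.34 (-0.07 to 0.75) in Mmp8-/- mice. With both arrays that had Xist signal left out, the differences were 0.98 and 0.32, and in Mmp8-/- mice 0.45 without the third array in doubt as well.

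Angptl6, a circulating factor linked to energy use, had low signals on every array, between 5.96 and 6.82. Its group means were 6.02 ± 0.02 and 6.18 ± 0.22 in Mmp8+/+ and Mmp8-/- controls and 6.44 ± 0.25 and 6.66 ± 0.19 in arthritic mice (SD, n = 3). The arthritic mice of each genotype lay above the controls of that genotype, with log2 differences of 0.42 (95% interval 0.05 to 0.79) and 0.47 (0.10 to 0.84). In Mmp8-/- mice the gap was narrow, from 6.41 in the highest control to 6.45 in the lowest arthritic mouse. The differences were 0.42 and 0.36 without both arrays that had Xist signal, and in Mmp8-/- mice 0.25 without the third array in doubt as well.

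Angpt1 was lower in arthritic joints, while Angpt2 was not displaced. Angpt1 signals were 9.30, 9.09 and 8.75 in Mmp8+/+ controls, 9.17, 9.08 and 8.60 in Mmp8-/- controls, 8.44, 7.83 and 8.46 in arthritic Mmp8+/+ mice and 7.56, 8.33 and 8.24 in arthritic Mmp8-/- mice. All arthritic values lay below all control values, with log2 differences of -0.80 (95% interval -1.32 to -0.28) in Mmp8+/+ and -0.90 (-1.42 to -0.38) in Mmp8-/- mice. Angpt2 signals ran from 7.26 to 7.71 in Mmp8+/+ controls, from 7.32 to 7.51 in Mmp8-/- controls, from 7.42 to 7.83 in arthritic Mmp8+/+ mice and from 7.08 to 7.95 in arthritic Mmp8-/- mice. These ranges overlapped, and the log2 differences were 0.04 (-0.41 to 0.49) and 0.07 (-0.38 to 0.52). They were 0.09 and 0.12 without both arrays that had Xist signal, and in Mmp8-/- mice 0.09 without the third array in doubt as well.

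The unequal change of the pair can be followed within an array. The log2 signal of Angpt2 minus that of Angpt1 was 0.85 higher in arthritic than in control Mmp8+/+ mice and 0.97 higher in Mmp8-/- mice, and the arthritic and control ranges of this difference did not overlap in either genotype. This was 0.77 and 0.91 without both arrays that had Xist signal, and in Mmp8-/- mice 0.64 without the third array in doubt as well. Without both arrays with Xist signal the Angpt1 differences were -0.68 and -0.79, and in Mmp8-/- mice -0.56 without the third array in doubt as well. Angpt4, the remaining angiopoietin and outside the genes named above, was lower too, by -0.77 in Mmp8+/+ and -0.68 in Mmp8-/- mice (SE 0.20). Neither call held without both arrays that had Xist signal (-0.66, limma adjusted p = 0.0504, and -0.46, adjusted p = 0.159).

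Tek and Tie1, the receptors, differed in opposite directions in Mmp8+/+ mice. Tek signals were 9.62, 9.55 and 9.42 in Mmp8+/+ controls and 9.86, 9.85 and 9.53 in Mmp8-/- controls. They were 8.76, 9.02 and 8.94 in arthritic Mmp8+/+ mice and 8.55, 9.17 and 8.71 in arthritic Mmp8-/- mice. Every arthritic value lay below every control value, with log2 differences of -0.62 (95% interval -0.997 to -0.242) in Mmp8+/+ and -0.94 (-1.31 to -0.56) in Mmp8-/- mice. Without both arrays with Xist signal these were -0.57 and -0.88, and the latter was -0.72 without the third array in doubt as well.

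Tie1 signals were 8.78, 8.59 and 8.60 in Mmp8+/+ controls and 8.92, 8.57 and 8.97 in Mmp8-/- controls. In arthritic Mmp8+/+ mice they were 9.11, 9.31 and 9.32, above every control. In arthritic Mmp8-/- mice they were 9.20, 8.69 and 8.70, so that mouse 1 lay with the arthritic Mmp8+/+ group and the other two within the control range. The log2 difference was 0.59 (95% interval 0.22 to 0.96) in Mmp8+/+ and 0.04 (-0.33 to 0.41) in Mmp8-/- mice. It was 0.65 and 0.09 without both arrays that had Xist signal, and in Mmp8-/- mice -0.11 without the third array in doubt as well. Within an array, Tie1 minus Tek was 1.21 higher in arthritic than in control Mmp8+/+ mice and 0.98 higher in Mmp8-/- mice, or 1.23 and 0.97 without both arrays that had Xist signal and 0.61 in Mmp8-/- mice without the third array in doubt as well.

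The order of the 4 groups differed between members. For Angptl7, Angpt1 and Tek both arthritic groups lay below both control groups, and for Angptl4 above them. Between neighbours in that order, ranges were separate only at the step from arthritic to control mice, of 3.98 for Angptl7, 0.71 for Angpt1, 0.62 for Tek and 1.93 for Angptl4 between group means. For Angptl1, Angptl6, Angpt2 and Tie1 the ranges of all neighbours in the order overlapped.

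**Figure D2:**
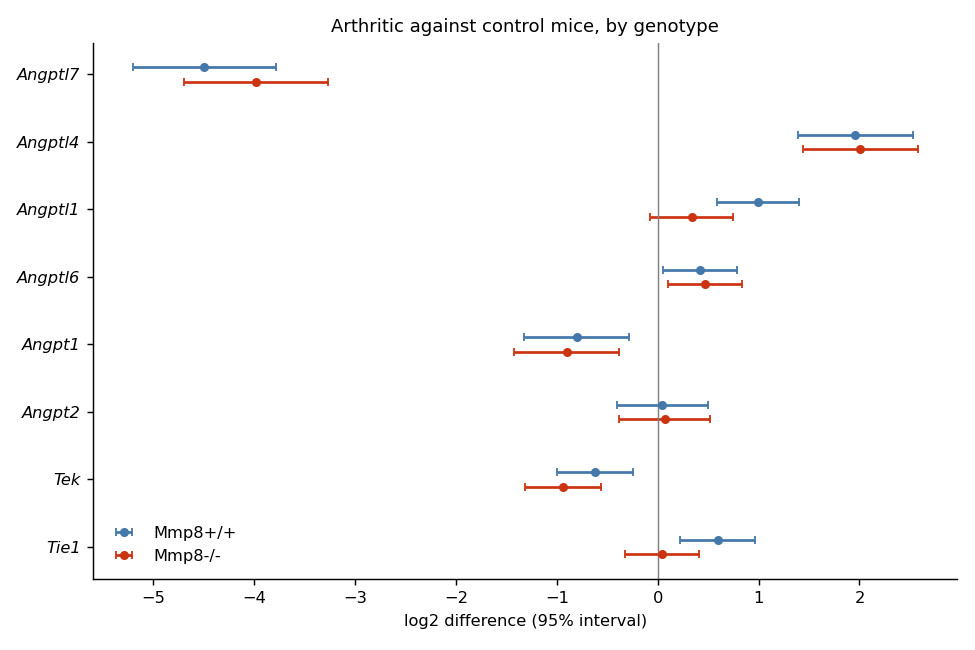
Log2 difference between arthritic and control mice (horizontal axis, 0 marks no difference) for the 8 genes in Mmp8+/+ (blue) and Mmp8-/- mice (red), with 95% intervals from the fit over 12 arrays. Angptl7 lies at -4.49 and -3.98, Angptl4 at 1.96 and 2.01, and the intervals of Angpt2 include 0 in both genotypes.

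At an FDR of 5% across all tested features, 3 of the 8 genes were called lower in arthritic Mmp8+/+ mice (Angptl7, Angpt1 and Tek), where 11.7% of all features were, and 3 higher (Angptl1, Angptl4 and Tie1), where 7.2% were. In Mmp8-/- mice the same 3 were called lower, against 13.7% of all features, and Angptl4 was called higher, against 7.92%. Without overlap between arthritic and control mice, 3 genes lay below in Mmp8+/+ mice (22.3% of all features did) and 4 above (18.6%), and in Mmp8-/- mice 3 lay below (21%) and 2 above (18.3%). The median log2 difference of the 8 genes was 0.23 in Mmp8+/+ and 0.06 in Mmp8-/- mice, beside 0.0078 and -0.0096 over all tested features. Since the choice of the genes used these contrasts, nothing is read from the counts. With both arrays that had Xist signal left out, 3 genes were called in each genotype, Angptl1, Angptl4 and Angptl7 in Mmp8+/+ and Angptl4, Angptl7 and Tek in Mmp8-/- mice. Of all features, 6.94% were then called lower and 3.53% higher in Mmp8+/+ mice, and 6.86% and 2.48% in Mmp8-/- mice. With the third array in doubt left out as well, a single Mmp8-/- control remained. The Mmp8-/- differences were then 1.56 for Angptl4, -3.55 for Angptl7, -0.72 for Tek and -0.56 for Angpt1. Leaving out arrays 1 at a time also ended calls near the threshold. Angpt1 lost its call in Mmp8+/+ mice without control mouse 1 (-0.68) or 2 (-0.78) or arthritic mouse 1 (-0.90) or 2 (-0.60), and in Mmp8-/- mice without control mouse 1 (-0.79) or 2 (-0.84) or arthritic mouse 1 (-0.66). Tek lost its call in Mmp8+/+ mice without control mouse 1 (-0.57) or 2 (-0.61) or arthritic mouse 1 (-0.54) or 3 (-0.64). Tie1 lost its call in Mmp8+/+ mice without control mouse 2 (0.56) or 3 (0.57) or arthritic mouse 2 (0.56) or 3 (0.55). Angptl6 gained a call in Mmp8-/- mice without control mouse 3 (0.58) or arthritic mouse 3 (0.58).

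The comparison of genotypes, which the choice of genes did not use, addressed whether loss of Mmp8 altered the family. In arthritic mice, 0 of the 8 genes were called between Mmp8-/- and Mmp8+/+ animals (limma with Benjamini-Hochberg adjustment, 0.00541% of all features called, or 1 of 18479). All 8 had an adjusted p of 0.9997. Mmp8, the deleted gene, was not called in this fit either (-5.54, limma adjusted p = 0.42), although its arthritic ranges did not overlap. Its SE was 1.04, against 0.17 for Angptl6 to 0.33 for Angptl7. The SD of Mmp8 in Mmp8-/- controls, which include the array that gave Mmp8 signal, was 3.30. Mmp8 is thus no measure of what the fit could detect for the 8 genes. With 3 mice per group, the lack of a call still does not show that a gene was unchanged. The largest differences were those of Angptl1, at -0.47 (95% interval -0.88 to -0.06), of Angptl7, at 0.41 (-0.30 to 1.12), and of Tie1, at -0.39 (-0.76 to -0.02). Angptl1 and Tie1 were the 2 genes with an unadjusted p under 0.05. Angptl4 differed by 0.08 (-0.49 to 0.65), Angptl6 by 0.22 (-0.15 to 0.59), Angpt1 by -0.20 (-0.72 to 0.32), Angpt2 by -0.09 (-0.54 to 0.36) and Tek by -0.10 (-0.47 to 0.28). The Mmp8-/- and Mmp8+/+ ranges overlapped for every one of the 8 genes.

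In control mice 0 of the 8 genes were called between genotypes by limma (adjusted p = 0.9998 for each, 0% of all features called), and 0 had an unadjusted p under 0.05. Mmp8 was not called there either (-4.01, limma adjusted p = 0.9998), with the array that gave Mmp8 signal among the Mmp8-/- controls. The differences of Mmp8-/- from Mmp8+/+ controls ran from -0.12 for Angpt2 to 0.22 for Tek. With the array labelled Mmp8-/- control that gave Mmp8 signal left out, 0 of the 8 were called as well.

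The interaction asks whether the arthritis difference itself depended on genotype. By limma 0 of the 8 genes passed (adjusted p = 0.9999 for each, 0% of all features called). The interaction was -0.66 for Angptl1 (SE 0.27, 95% interval -1.24 to -0.08) and -0.55 for Tie1 (SE 0.24, -1.07 to -0.03), the 2 genes with an unadjusted p under 0.05, and 0.51 for Angptl7 (-0.50 to 1.52). It was -0.32 for Tek, with values between -0.10 and 0.05 for the other 4 genes. For Angptl1 and Tie1 the call in Mmp8+/+ mice and its absence in Mmp8-/- mice are thus not shown to differ. The Angptl1 interaction was -0.65 without both arrays with Xist signal and -0.52 without all 3 arrays in doubt, and the Tie1 interaction was -0.56 and -0.76.

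**Figure D3:**
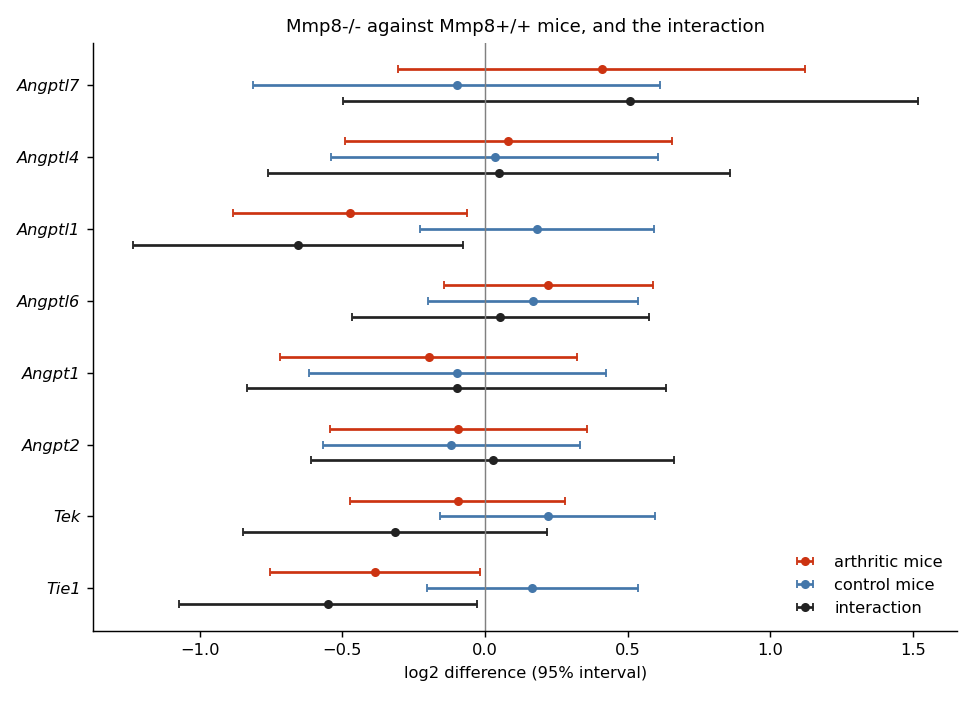
Log2 difference of Mmp8-/- from Mmp8+/+ mice (horizontal axis) in arthritic (red) and control mice (blue), and the interaction (black), for the 8 genes with 95% intervals. The intervals of Angptl1 and Tie1 lie below 0 in arthritic mice and for the interaction, before any adjustment, and the others include 0.

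The 5 genes closest to Angptl7 were found by the root mean square difference of their mean-centred log2 signals over the 12 arrays, among 15977 genes compared. They were Cytl1, a secreted cytokine-like protein of cartilage, at 0.383, Fmo2, a flavin monooxygenase, at 0.4996, Scg3, a granin of secretory granules, at 0.525, Clec3a, a lectin of cartilage, at 0.536, and Htra4, a serine protease, at 0.574. Their arthritis differences were -4.50 and -4.19 for Cytl1 (Mmp8+/+ and Mmp8-/-), -3.26 and -3.61 for Fmo2, -3.56 and -3.64 for Scg3, -3.43 and -3.56 for Clec3a and -3.55 and -3.26 for Htra4. Mouse 3 of the arthritic Mmp8-/- group was the highest of its group for Angptl7 and for all 5 of these genes. The measure was computed on the arrays that chose Angptl7 and has no test. Without all 3 arrays in doubt the differences of the 5 genes lay between -4.51 and -3.12 in Mmp8+/+ mice and between -3.83 and -3.06 in Mmp8-/- mice, from Cytl1 to Fmo2 in both.

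**Figure D4:**
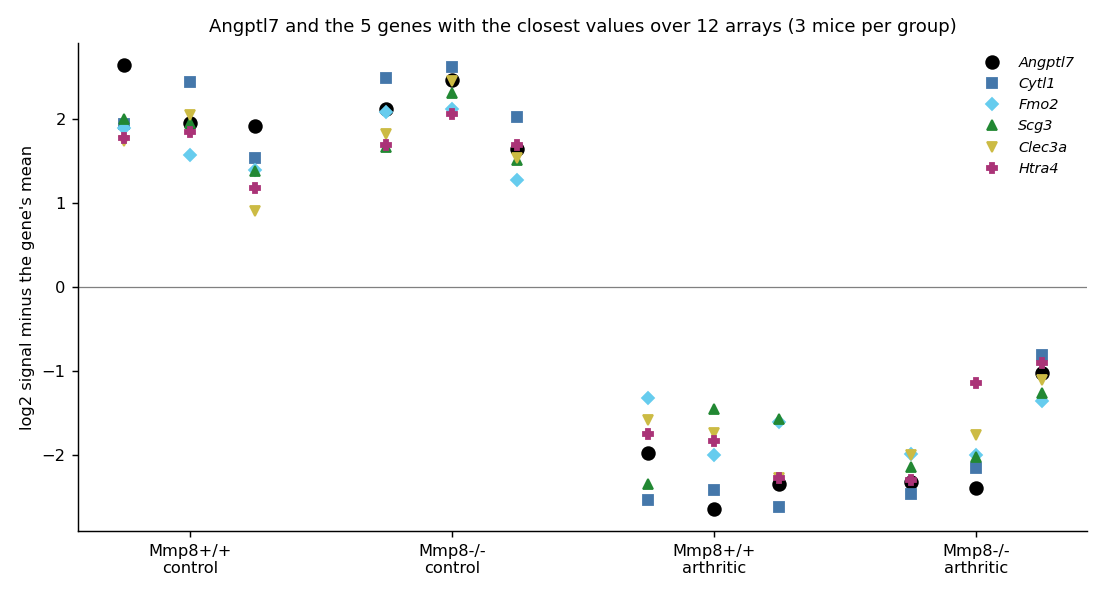
Log2 signal minus each gene's mean over 12 arrays (vertical axis) for Angptl7 and the 5 closest genes, 1 column of points per mouse. All 6 genes sit above 0 on control and below 0 on arthritic arrays, with mouse 3 of the arthritic Mmp8-/- group the least low of its group.

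Several members lie within or overlap other genes in the RefSeq annotation, and the values of those genes are given beside them. Angptl7 lies within Mtor, the growth-signalling kinase, which was lower by -0.59 in arthritic Mmp8+/+ mice (SE 0.15, limma adjusted p = 0.0129) and differed by -0.40 in Mmp8-/- mice (adjusted p = 0.0646), far less than Angptl7. The call was lost without both arrays that had Xist signal (-0.53, adjusted p = 0.083). Angptl1 lies within Ralgps2, a nucleotide exchange factor, which was called lower, at -1.66 in Mmp8+/+ and -1.65 in Mmp8-/- mice (SE 0.17), where Angptl1 was higher. Angpt2 lies within Mcph1 (-0.04 and 0.10, not called) and Angptl6 overlaps Shfl (-0.08 and 0.30, not called, looked up after the values were seen). Angptl4, Tek and Tie1 overlap no other annotated gene.

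The counts over gene lists that follow are to be read against the shares of all features called, which for higher calls were 7.2% in Mmp8+/+ and 7.92% in Mmp8-/- mice and for lower calls 11.7% and 13.7%. Fewer features were called with fewer arrays. The shares of higher calls were 3.53% and 2.48% without both arrays that had Xist signal and 3% and 0.736% without all 3 arrays in doubt, and those of lower calls 6.94% and 6.86%, then 6.28% and 1.89%. A list's median can therefore stay while its calls are lost, and medians are given beside the calls for most lists.

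The signalling partners of the Tie receptors showed no common direction. Of 16 partners, 3 were called higher and 2 lower in arthritic Mmp8+/+ mice, and 1 higher and 4 lower in Mmp8-/- mice, with medians of 0.04 and -0.03. Pik3r1, the regulatory subunit of the lipid kinase downstream of Tie2, was lower by -1.53 in Mmp8+/+ and -1.43 in Mmp8-/- mice (SE 0.26). Ptprb, the endothelial phosphatase that dephosphorylates Tie2, was lower by -0.63 and -0.69 (SE 0.17). Svep1, an extracellular matrix protein that binds Tie1, was higher by 1.07 and 0.58 (SE 0.18). Foxo1, the transcription factor that active Tie2 signalling restrains, was called lower in Mmp8-/- mice (-0.92) and differed by -0.58 in Mmp8+/+ mice without a call. When both arrays with Xist signal were removed, 3 partners were called in Mmp8+/+ and 2 in Mmp8-/- mice (medians 0.11 and -0.0063), and without all 3 arrays in doubt 2 and 0 (0.11 and -0.04).

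Among 10 VEGF ligands and receptors, the parallel system of vessel growth, 1 was higher and 2 lower in arthritic Mmp8+/+ mice and 2 were lower in Mmp8-/- mice, with medians of -0.42 and -0.43. Flt4, the receptor of lymphatic endothelium, was lower in both (-0.54 and -0.56, SE 0.15). Vegfd, a lymphatic growth factor, was called higher in Mmp8+/+ mice (1.45) and differed by 0.74 in Mmp8-/- mice without a call. Vegfa differed by -0.38 and -0.13, without a call. With both arrays that had Xist signal left out, 0 of the 10 were called in Mmp8+/+ and 1 in Mmp8-/- mice, and without all 3 arrays in doubt 0 in either, with medians of -0.43 and -0.32, and of -0.43 and -0.36.

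Of 8 tested genes of the lipoprotein lipase axis, on which Angptl4 acts, 4 were lower and 1 higher in each genotype, with medians of -0.36 and -0.52. Lpl, the lipase, was lower by -2.21 and -2.31 (SE 0.29), Cd36, the fatty acid transporter, by -2.07 and -2.14 (SE 0.32), Vldlr, a receptor for triglyceride-rich particles, by -1.91 and -1.85 (SE 0.28), and Gpihbp1, which anchors the lipase on capillaries, by -0.76 and -0.82 (SE 0.17). The gene called higher was Pltp, the phospholipid transfer protein, in Mmp8+/+ mice (0.93, beside 0.09 in Mmp8-/- mice without a call) and Lipg, endothelial lipase, in Mmp8-/- mice (0.57, beside 0.26 in Mmp8+/+ mice without a call). Lmf1 and Lmf2, which help the lipase fold, were not called (0.35 and -0.09, and 0.05 and -0.22). Within an array, Angptl4 minus Lpl was 4.17 higher in arthritic than in control Mmp8+/+ mice and 4.32 higher in Mmp8-/- mice, or 4.69 and 4.11 without both arrays that had Xist signal and 3.745 in Mmp8-/- mice without the third array in doubt as well. Adipocytes express several of these genes, and adipocyte markers were lower too (below). When both arrays with Xist signal were removed, 4 genes were called lower and 0 higher in each genotype, and without all 3 arrays in doubt 4 and 2 lower, with medians of -0.36 and -0.52, and of -0.36 and -0.44.

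Angptl4 is a target of PPAR receptors and of hypoxia, and the other targets were mixed. Of 9 tested PPAR targets and receptors, Mmp8+/+ mice had 1 higher and 3 lower, and Mmp8-/- mice 1 higher and 2 lower. Pparg, the adipocyte receptor, was lower by -1.71 and -1.66 (SE 0.26), Acadl, of fatty acid oxidation, by -0.64 and -0.63 (SE 0.21), and Plin2, of lipid droplets, was higher by 0.73 and 0.63 (SE 0.21). Of 10 hypoxia targets 2 were higher and 1 lower in each genotype, Pgk1, a glycolytic enzyme, by 0.55 and 0.86 (SE 0.14), and Bnip3, of mitochondrial turnover, by -0.72 and -0.56 (SE 0.19). With both arrays that had Xist signal left out, 1 PPAR gene and 1 hypoxia gene were called in each genotype, and without all 3 arrays in doubt 1 and 0. The medians, -0.64 and -0.23 for PPAR genes and 0.23 and 0.16 for hypoxia genes, were then -0.19 and -0.20, and 0.27 and 0.25.

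Of 5 receptors reported for angiopoietin-like proteins, Itga5, an integrin subunit, was higher by 1.62 and 1.13 (SE 0.16). Pirb, an inhibitory receptor of myeloid cells, was called higher in Mmp8+/+ mice (0.88) and Itgb3 lower (-0.77), and neither was called in Mmp8-/- mice. When both arrays with Xist signal were removed, and without all 3 arrays in doubt, 3 were called in Mmp8+/+ and 1 in Mmp8-/- mice.

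Markers of several cell types of the joint also differed between control and arthritic mice, and their part in the differences above was not tested. For the blood endothelium, where Tek and Tie1 are expressed, the mean signal of 14 markers ran from 8.91 to 9.22 in Mmp8+/+ controls, 9.13 to 9.28 in Mmp8-/- controls, 8.85 to 9.01 in arthritic Mmp8+/+ and 8.69 to 9.04 in arthritic Mmp8-/- mice. In Mmp8+/+ mice 0 of the 14 were called (median -0.11), and in Mmp8-/- mice 5 were lower (median -0.47), among them Cldn5, a tight junction protein, at -0.72. Pecam1 differed by 0.12 and -0.45 and Cdh5 by 0.34 and 0.07, without a call. With both arrays that had Xist signal left out, 0 of the 14 were called in either genotype, with medians of -0.10 and -0.44.

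Of 5 lymphatic markers 4 were lower in both genotypes, Lyve1, a hyaluronan receptor also found on resident macrophages, by -2.58 and -2.78 (SE 0.33), whereas Prox1, the defining transcription factor, differed by 0.32 and 0.40 without a call. Of 8 mural cell markers, cells that supply Angpt1, 3 were lower in Mmp8+/+ and 4 in Mmp8-/- mice, Myh11, a smooth muscle myosin, by -1.78 and -1.84 (SE 0.18) and Rgs5 of pericytes by -1.13 and -1.30 (SE 0.27), while Pdgfrb differed by 0.20 and -0.19 without a call. The mural mean ran from 9.40 to 9.60 in controls and from 8.62 to 8.81 in arthritic mice, without overlap. When both arrays with Xist signal were removed, 3 lymphatic markers were called in each genotype, and 2 and 3 mural markers, and without all 3 arrays in doubt 3 and 1 lymphatic and 2 and 1 mural markers. The medians, -0.89 and -0.79 for lymphatic and -0.50 and -0.61 for mural markers, were then -0.88 and -0.69, and -0.59 and -0.59.

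Beside Angptl4 and the lipase, all 9 tested of 11 adipocyte markers were lower in both genotypes, with medians of -2.04 and -2.20, Adipoq (adiponectin) by -2.58 and -2.77 (SE 0.37) and Fabp4, a fatty acid carrier, by -2.24 and -2.49 (SE 0.23). All 9 were called lower in both genotypes without the arrays in doubt too (medians -2.37 and -2.09 without all 3). The adipocyte mean ran from 9.01 to 9.87 in Mmp8+/+ controls, 9.61 to 9.86 in Mmp8-/- controls, 7.52 to 7.77 in arthritic Mmp8+/+ and 7.36 to 7.86 in arthritic Mmp8-/- mice.

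Beside Angptl7, cartilage genes were split. Of 12 genes, Mmp8+/+ mice had 2 higher and 4 lower, and Mmp8-/- mice 2 higher and 5 lower, with medians of -0.05 and -0.11. The mean of the 12 ran from 8.79 to 9.24 in controls and from 8.03 to 8.77 in arthritic mice, without overlap. Chad, a cartilage leucine-rich protein, was lower by -3.31 and -3.40 (SE 0.41), as were Cytl1 and Clec3a above, while Acan, the main proteoglycan, was higher by 0.71 and 0.58 (SE 0.19) and Col2a1 differed by -0.06 and -0.15 without a call. Of 4 synovial lining genes 3 were lower in both, Clic5, a chloride channel protein, by -3.35 and -3.23 (SE 0.17) and Cd55, a complement regulator, by -1.98 and -2.68 (SE 0.26), and Prg4 (lubricin) differed by -0.33 and -0.37 without a call. Of 6 tendon genes 3 were higher in Mmp8+/+ and 2 in Mmp8-/- mice, Thbs4, a matrix thrombospondin, by 1.47 and 1.05 (SE 0.16) and Scx, the tendon transcription factor, by 0.85 and 0.73 (SE 0.14). Without both arrays that had Xist signal, 1 cartilage gene was higher and 3 lower in Mmp8+/+ and 4 were lower in Mmp8-/- mice, 3 synovial lining genes were lower and 2 tendon genes higher in each genotype. Without all 3 arrays in doubt, 1 cartilage gene was higher and 4 lower in Mmp8+/+ and 4 were lower in Mmp8-/- mice (medians 0.01 and -0.45), 3 synovial lining genes were lower in each (-2.06 and -2.27), and 2 and 1 tendon genes were higher (0.64 and 0.08).

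**Figure D5:**
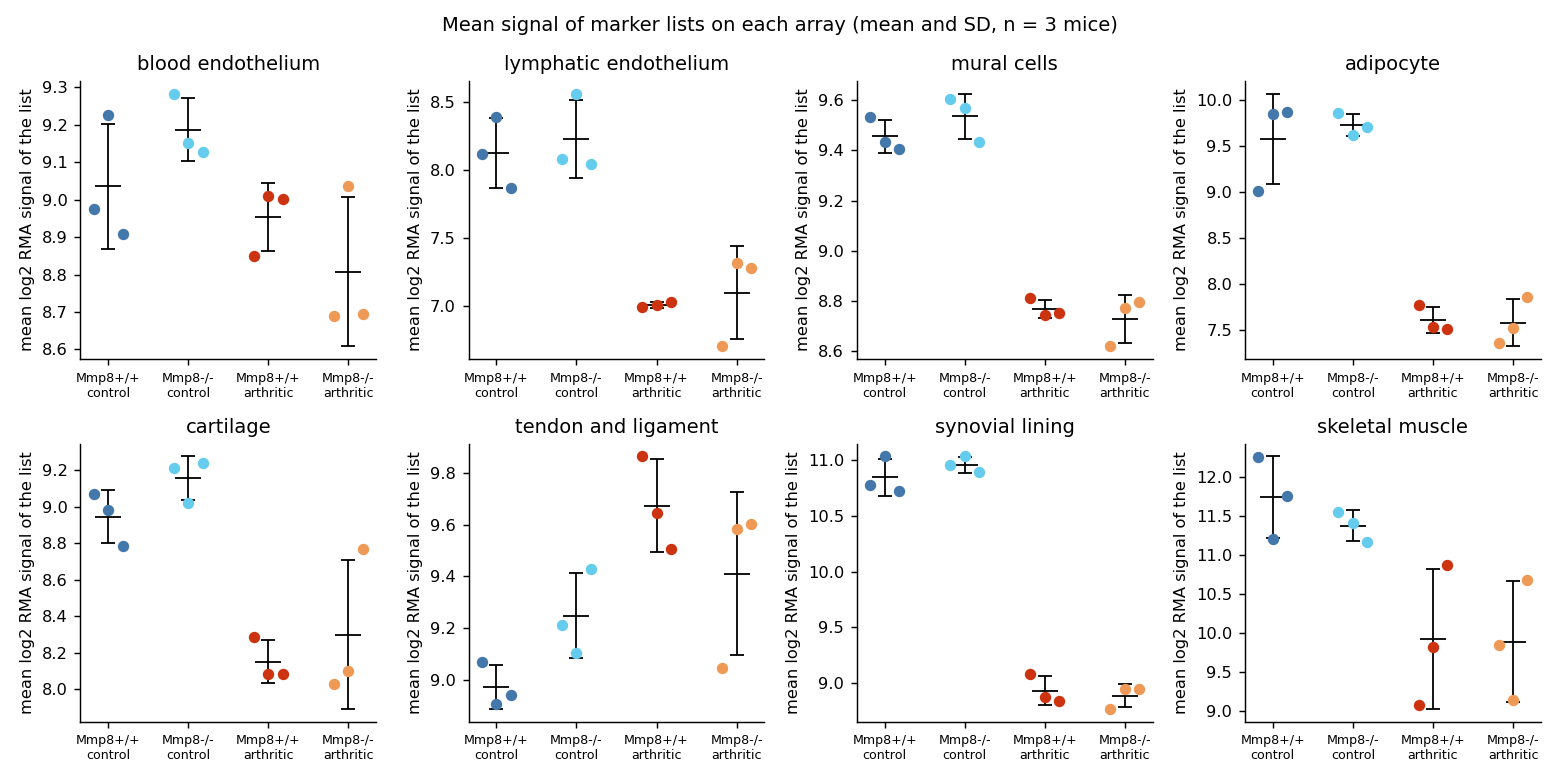
Mean log2 RMA signal of 8 marker lists on each array (vertical axes, each with its own range), by group, with points for single mice and bars for the mean and SD (n = 3). The adipocyte, mural, lymphatic, synovial lining, cartilage and skeletal muscle points are lower in all arthritic mice (adipocyte 7.36 to 7.86 against 9.01 to 9.87). The blood endothelium points and the tendon and ligament points overlap.

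Skeletal muscle markers were lower (7 of 8 in Mmp8+/+ and 5 in Mmp8-/- mice, medians -1.82 and -1.63), with 2 of 8 in each genotype without both arrays with Xist signal and 2 and 0 without all 3 arrays in doubt, where the medians were -1.58 and -1.52. Of 6 neutrophil markers 2 were higher in both, Csf3r by 1.35 and 1.22 (SE 0.16) and Cxcr2 by 1.34 and 1.72 (SE 0.21). The 4 without a call were Mmp9 (0.47 and 0.46), S100a8 (0.03 and 0.50), S100a9 (-0.24 and 0.32) and Retnlg (0.09 and -0.10). Of 6 macrophage markers 1 was higher and 1 lower in Mmp8+/+ mice, and 2 were higher and 1 lower in Mmp8-/- mice. Cd163, of resident macrophages, was lower by -1.16 and -1.18 (SE 0.23) and Cd68 higher by 0.65 and 0.62 (SE 0.21). Lyz2 was called higher in Mmp8-/- mice (0.43, beside 0.41 in Mmp8+/+ mice without a call). Adgre1 (0.39 and 0.29), Csf1r (-0.0048 and -0.29) and Mrc1 (-0.53 and -0.54) were not called. Of 7 epidermal markers 0 were called in Mmp8+/+ and 2 were lower in Mmp8-/- mice. Krtdap, of differentiating keratinocytes, was the 1 listed gene called between genotypes in arthritic mice (-1.83, SE 0.23, limma adjusted p = 0.0234, and 0.0982 without both arrays that had Xist signal). Its difference was also -1.83 without those and without all 3 arrays in doubt. The arrays left out are controls and alter only the estimate of spread. Epidermal means were 8.96 to 9.92 in arthritic Mmp8+/+ and 7.67 to 8.07 in arthritic Mmp8-/- mice, beside the Angptl1 and Tie1 differences between the same groups. Without both arrays that had Xist signal, 2 neutrophil markers were higher in each genotype. There, 0 macrophage markers were higher and 1 lower in each, so Cd68 lost its calls. Epidermal markers called lower were then 0 in Mmp8+/+ and 2 in Mmp8-/- mice. With all arrays the medians in Mmp8+/+ and Mmp8-/- mice were 0.28 and 0.48 for neutrophil, 0.19 and 0.0012 for macrophage and 0.51 and -1.27 for epidermal markers. Without all 3 arrays in doubt they were 0.28 and 0.01, 0.12 and -0.06, and 0.18 and -0.02, so the epidermal median in Mmp8-/- mice did not stay.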

How the data were processed

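Ankle-joint RNA of 12 mice was hybridised, 1 array per mouse and 3 mice per group. The authors deposited RMA values in log2 units, 28853 features by 12 arrays, made in Partek from background-corrected and quantile-normalized signals. The genome build is not given in the sources used here. Of the columns of values 0 were left out. RMA narrows differences near background and can damp a shift shared by all genes, and precision is limited by the number of arrays.

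Features were named from GEO's platform annotation, with symbols updated through RefSeq (GRCm38.p6): 21789 features had 1 symbol, 1621 several and 5443 none. The 18479 named features with a mean of at least 5.3 were tested with limma 3.58.1 (R 4.3.3) on the 12 arrays together, fitting the 4 group means, with 8 residual degrees of freedom, no covariate and Benjamini-Hochberg adjustment over all tested features (FDR 5%). P-values are two-sided, and errors of differences are standard errors (SE). The fit was tested on simulated data.

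The genes and lists were chosen with earlier results of these data known, and lists are described by counts and medians. Named from a list were the members, other genes of the family with a row, up to 4 genes per list with the largest mean difference among those called in both genotypes, any called between genotypes, the 5 genes closest to Angptl7 and the genes that hold a member. Genes without a call were named as defining markers or for contrast, after their values were seen. Angptl8, outside the genes named, was not called (0.50 in Mmp8+/+ and 0.15 in Mmp8-/- mice). Alternatives were another normalization, filter, model or set of arrays. List counts, shares of features, within-array differences and single genes without the arrays in doubt were added after seeing the data.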

Additional observations from a re-analysis of the deposited data

How the results depend on the processing

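Over all alternatives run, the difference of Angptl7 lay between -4.67 and -4.26 in Mmp8+/+ and between -4.43 and -3.55 in Mmp8-/- mice. Counts of calls in the arthritis contrasts, which chose the family, are given as a description. The count of genes called of the 8 was 6 in Mmp8+/+ and 4 in Mmp8-/- mice. It ranged from 3 to 6 and from 3 to 5 when each array was left out in turn, was 3 in Mmp8+/+ mice without both arrays with Xist signal, and was 3 and 2 without those and the array labelled Mmp8-/- control that gave Mmp8 signal, where the lone Mmp8-/- control is assumed to vary like the other groups. In the genotype comparisons and the interaction the count was 0 under every alternative run. Ordinary linear regression ended the calls of Angpt1 in both genotypes (adjusted p = 0.0952 and 0.0647), and quantile normalization in Mmp8+/+ mice (0.0587). Centring each array on its mean gave Angptl6 a call in Mmp8-/- mice (0.0431). Without all 3 arrays in doubt, Tek and Angpt1 lost their calls in Mmp8-/- mice (-0.72 and -0.56), where a single control remained. Angpt1, Tek and Tie1 lost theirs in Mmp8+/+ mice. The other alternatives that changed a call are given in the report. The cause was not tested.

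Some differences that were not called changed sign. With array weights these were Tie1 in arthritis of Mmp8-/- mice (-0.042), Angpt2 between arthritic genotypes (0.034), Angptl4 between control genotypes (-0.079) and the Angpt1 interaction (0.028). With both arrays that had Xist signal left out, they were Angptl7 between control genotypes (0.11) and the interactions of Angptl4 (-0.38) and Angptl6 (-0.057). Without all 3 arrays in doubt they were Tie1 in arthritis of Mmp8-/- mice (-0.11) and the interactions of Angptl4 (-0.65), Angptl6 (-0.17), Angpt1 (0.12) and Angpt2 (-0.0029). With each array left out in turn, the arthritis difference ranged from -0.092 to 0.14 for Angpt2 in Mmp8+/+, from -0.17 to 0.27 for Angpt2 in Mmp8-/- and from -0.12 to 0.13 for Tie1 in Mmp8-/- mice. Between arthritic genotypes the difference ranged from -0.091 to 0.20 for Angptl4, -0.033 to 0.65 for Angptl7, -0.40 to 0.044 for Angpt1, -0.33 to 0.11 for Angpt2 and -0.28 to 0.032 for Tek. That of Angptl7 was 0.41 with all arrays and -0.033 without mouse 3 of the arthritic Mmp8-/- group. Between control genotypes the difference ranged from -0.26 to 0.28 for Angptl4, -0.29 to 0.14 for Angptl7 and -0.24 to 0.075 for Angpt1. The interaction ranged from -0.20 to 0.35 for Angptl4, -0.067 to 0.19 for Angptl6, -0.31 to 0.14 for Angpt1 and -0.21 to 0.23 for Angpt2.

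Over all features, 3487 were called in Mmp8+/+ and 3997 in Mmp8-/- mice, but 1935 and 1726 without both arrays with Xist signal and 1715 and 485 without all 3 arrays in doubt. Other rows of a gene could not be tried, since each gene had 1. No paired analysis was possible because the labels give the mice no numbers. Signals such as that of Angptl6, close to the lowest tested, carry the least information.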
